A study of Danio rerio with 10 samples.

Results

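The proteasome genes of zebrafish testis were examined in 10 RNA-seq libraries. A gene was taken as a member where its Ensembl zebrafish name, in any case, began with psma, psmb, psmc, psmd, psme, psmf or psmg and a digit, with psmc3ip left out. The rule found 58 Ensembl IDs, of which 51 were among the 33737 genes of the count tables, and 49 passed the filter on low counts. Testis tissue of adult wild-type zebrafish was kept for 3 days in culture with 11KT (11-ketotestosterone, the main androgen of male fish), which all 10 libraries share. The 5 control libraries received 11KT alone, and the 5 Amh libraries received 11KT and Amh (anti-Müllerian hormone), which Sertoli cells make and which belongs to the TGF-beta ligands. Each group carries the replicate numbers 1 to 5, and what a number stands for (a fish, a dish or a run of the experiment) is not given by the labels.

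The proteasome degrades proteins that carry ubiquitin chains. Its barrel-shaped core is built of rings of alpha subunits (psma), which form the gate, around rings of beta subunits (psmb), of which the beta1, beta2 and beta5 types cut peptide bonds. A regulatory particle of ATPases (psmc) and other subunits (psmd) binds, unfolds and feeds in the substrates, while activators (psme) open the gate without ubiquitin, psmf1 is an inhibitor, and psmg genes encode chaperones that assemble the core. In vertebrates, immune beta subunits take the place of the catalytic ones and change which peptides reach MHC class I, and mammalian testis has a proteasome form of its own that contains PSMA8.

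By role, the tables held 9 of 10 core alpha IDs and 7 of 7 of the constitutive core beta (psmb1 to psmb7). They held 6 of 7 immune beta (psmb8 to psmb13), 7 of 7 ATPase and 13 of 17 non-ATPase regulatory IDs. Also held were 5 of 5 activators, 2 of 3 assembly chaperones and the inhibitor psmf1. Roles followed the names, so that not all non-ATPase genes need be subunits of the regulatory particle. psmd9, for example, is a chaperone that assembles the base. psme3ip1 fits the rule by name and encodes a partner of psme3 and not a subunit. It was kept apart from the role groups, but it is counted among the 49 tested members and in the values over all members. The 7 IDs named psma1, psmb11, psmd2 (2 IDs), psmd4, psmd7 and psmg3 were not analysed here. Of the 51 in the tables, 2 did not pass the filter. A psme4 gene (ENSDARG00000087911) had 0 counts in every library, which allows up to 3 counts, or 0.194 to 0.355 CPM by library (CPM, each library's counts scaled to one total, here before TMM scaling). psmb11b (ENSDARG00000068086), of a family whose mammalian member works in the thymus, had 0 to 5 counts.

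Libraries held 8455226 to 15448069 counts, and in each number the Amh library was the deeper. All 7 germ cell markers with a gene in the tables were detected, with a summed level of 4285 to 5466 CPM. Members took 0.594% to 0.767% of all counts. Of the leukocyte markers, cd8a and il2rga stood below 1 CPM in every library, each at 0 in some.

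The proteasome genes showed 2 patterns. Between control and Amh they differed little, and no member passed the test. Between replicate numbers, the immune subunits psmb8, psmb9, psmb12 and psmb13a differed in both groups, and psmb10 and the constitutive core varied less.

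psmb8 (ENSDARG00000001303), the immune form of the chymotrypsin-like beta5 subunit, listed by RefSeq as psmb8a, stood at 46.8, 50.8, 117, 51.9 and 124 CPM in control libraries 1 to 5 and at 56.5, 43.2, 114, 49.6 and 142 CPM in Amh libraries 1 to 5 (CPM with TMM scaling here and below). Both libraries numbered 3 and both numbered 5 were above the other 6, and the control and Amh values overlapped. psmb9 (ENSDARG00000000656), the immune form of beta1, stood at 11.3, 12.9, 33.7, 15.0 and 23.8 CPM in control and at 12.0, 9.66, 30.9, 14.1 and 23.9 CPM in Amh libraries. It was highest in the libraries numbered 3, followed by those numbered 5.

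psmb12 (ENSDARG00000031885), a beta1-type subunit of fish, stood at 14.4, 17.6, 28.3, 13.9 and 33.2 CPM in control and at 18.6, 17.1, 28.9, 15.9 and 41.0 CPM in Amh libraries. psmb13a (ENSDARG00000001656), a beta2-type subunit of fish, stood at 19.9, 19.3, 68.7, 22.0 and 43.2 CPM in control and at 17.8, 20.9, 64.8, 21.6 and 41.8 CPM in Amh libraries. psmb12 was thus highest in number 5 and psmb13a in number 3, and in neither gene did a library of number 1, 2 or 4 reach one of number 3 or 5. The order of numbers 3 and 5 differed among the 4 genes, with psmb8 and psmb12 higher in 5 and psmb9 and psmb13a higher in 3.

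psmb10 (ENSDARG00000043781), the immune form of beta2, stood at 41.2, 43.0, 39.7, 44.9 and 41.0 CPM in control and at 50.5, 42.2, 44.0, 51.9 and 49.9 CPM in Amh libraries. Numbers 3 and 5 did not stand apart in it, and its control and Amh ranges overlapped, with Amh 2 and Amh 3 inside the control range. Its highest library was 1.31 times its lowest, against 2.95 to 3.87 times for the other 4 tested immune genes.

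**Figure D1:**
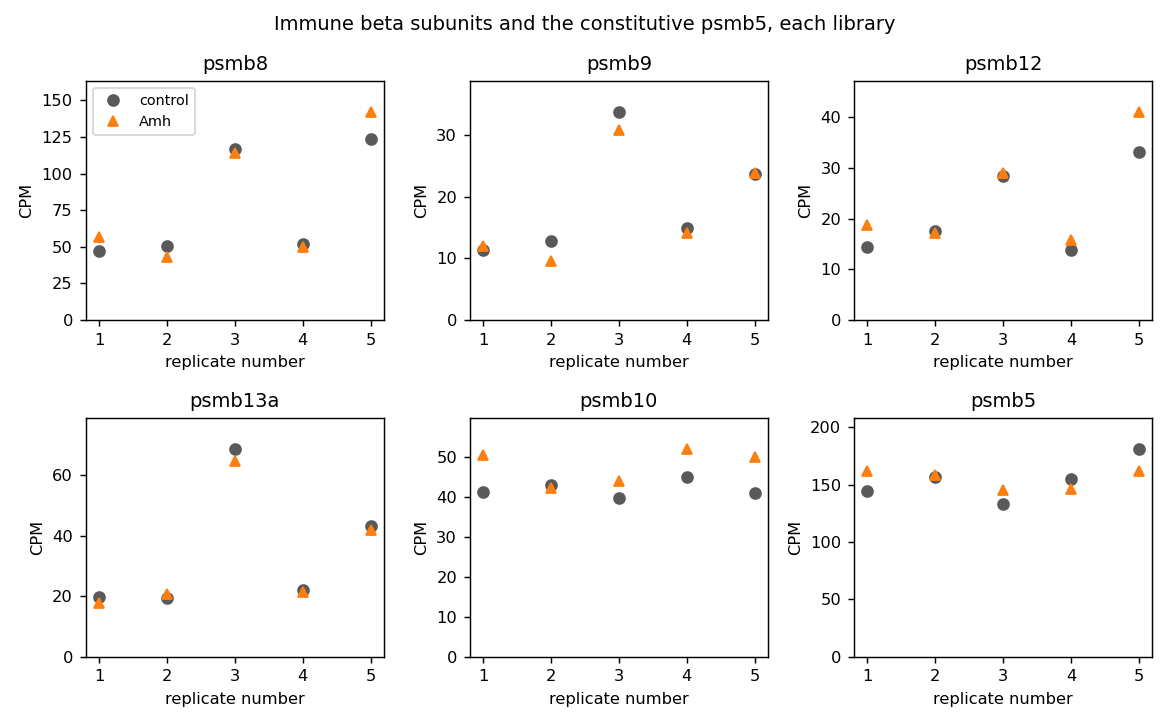
CPM (TMM scaled, axes from 0) of the 5 tested immune beta subunit genes and of the constitutive psmb5 by replicate number, with circles for control and triangles for Amh libraries (1 point per library). psmb8, psmb9, psmb12 and psmb13a are high in both libraries of numbers 3 and 5, from 114 to 142 CPM in psmb8 against 43.2 to 56.5 CPM elsewhere, while psmb10 and psmb5 are not.

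An edgeR quasi-likelihood test of the replicate number, with the group as a further term, gave Benjamini-Hochberg adjusted p = 1.24e-07 for psmb8, 4.89e-06 for psmb9, 9.41e-06 for psmb12 and 3.4e-08 for psmb13a over all 19420 genes tested, and 0.540 for psmb10. Differences between numbers were common, with 52.6% of all tested genes called, so that a call is not particular to these genes. By the size of F they ranked 202, 722, 900 and 139 among the 19420 genes. The replicate number held 98.0%, 97.3%, 95.1% and 99.5% of their variance in log2 CPM, against 32.6% for psmb10 and a median of 77.2% over all tested genes. Among the other members psmg2 (97.1%) and psmd6 (95.6%) had shares of that size too, so that such a share is not particular to these genes. The 4 calls held without any one number (adjusted p of 0.00140 or less).

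Set against the constitutive subunit of the same type, the 4 genes kept this pattern. There were 27.3 to 34.9 psmb8 counts per 100 psmb5 counts in numbers 1, 2 and 4 and 68.3 to 88.0 in numbers 3 and 5 (counts, not divided by length, so that only libraries can be compared). For psmb9 per 100 psmb6 counts the values were 6.62 to 11.5 and 17.7 to 25.6. For psmb12, also per 100 psmb6 counts, they were 10.7 to 16.5 and 21.5 to 30.4. For psmb13a per 100 psmb7 counts they were 3.98 to 5.40 and 8.43 to 16.9. psmb10 per 100 psmb7 counts lay between 8.01 and 11.4 in all 10 libraries, with control 5 the lowest.

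The 4 genes follow one another in the RefSeq gene order of the assembly GRCz12tu, next to MHC class I and peptide transporter genes. In zebrafish this core MHC class I region is known for haplotypes that differ in sequence and gene content, while the counts were made on a single genome, and the haplotypes of the libraries were not determined here. In that assembly the span listed for psmb13a overlaps 3 of these immune genes and tap2a. The build listed for the counts is Zv9, in which the overlap of these genes was not checked. Reads may not be fully separable between them, and how the counting treated such reads is not given in the sources used here. Of the 12 nearest protein-coding neighbours (6 on each side, a rule chosen after seeing the values), 11 had a gene in the tables.

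mhc1uba (ENSDARG00000075963), an MHC class I gene next to psmb13a in that order, stood at 15.4, 8.08, 243, 8.38 and 10.7 CPM in control and at 14.6, 4.97, 274, 7.50 and 17.4 CPM in Amh libraries. Its high values fell on number 3 alone, unlike those of the immune subunits, which were also high in number 5. tap2a (ENSDARG00000036787), a subunit of the transporter that brings peptides to MHC class I, stood at 11.8, 7.03, 52.7, 11.0 and 14.0 CPM in control and at 8.98, 6.25, 35.2, 8.05 and 14.4 CPM in Amh libraries. It too was highest in number 3, followed by number 5, and among the tested neighbours tap2a alone had the libraries of numbers 3 and 5 above the other 6. It had adjusted p = 6.71e-08 in the edgeR test of replicate number (3.92e-12 for mhc1uba).

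The tapasin gene tapbp.1, a further neighbour, lay between 18.1 and 26.1 CPM and tapbp.2 between 5.91 and 12.9 CPM, and both were lower in the libraries of number 3 than in those of numbers 1 and 2. The MHC class I neighbour that RefSeq lists as mhc1uka was matched by a synonym to ENSDARG00000092731, which Ensembl names mhc1uca. Unlike mhc1uba, that gene was lowest in number 3 of each group, at 2.91 and 4.81 CPM (control and Amh). Further out, daxx, a chaperone of histones, lay between 72.6 and 101 CPM, with number 3 highest, and sdha, of the respiratory chain, between 140 and 180 CPM. The neighbours zbtb22b and brd2a were also highest in number 3 of each group. There zbtb22b stood at 97.7 and 88.6 CPM and brd2a at 250 and 236 CPM (control and Amh). The edgeR test of replicate number did not call tapbp.1, daxx or sdha (adjusted p = 0.2235, 0.0550 and 0.610).

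**Figure D2:**
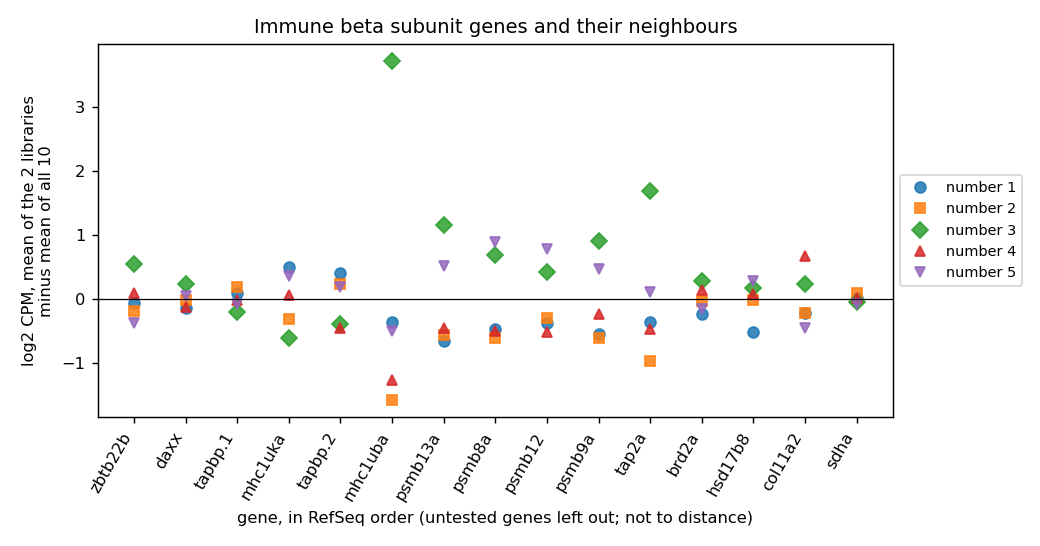
Mean log2 CPM of the control and Amh library of each replicate number minus the mean over all 10 libraries, for the 4 adjacent immune subunit genes and their tested neighbours in RefSeq gene order (not to distance). Numbers 3 and 5 lie above 0 and the other numbers below 0 for psmb13a, psmb8a, psmb12 and psmb9a, and mhc1uba is above 0 in number 3 alone.

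Immune subunits respond to interferon in vertebrates, so genes of antigen processing and interferon were set beside them. Genes of that list differed in their order by number. The interferon-induced genes isg15 and RSAD2 were lowest in number 5. There isg15 stood at 40.9 and 57.7 CPM and RSAD2 at 2.78 and 3.07 CPM (control and Amh). isg15 lay between 75.6 and 130 CPM in the other 8 libraries, and RSAD2 between 6.53 and 25.9 CPM. gbp1 and irf9 were not lowest in number 5, at 47.0 and 43.7 CPM for gbp1 and 27.2 and 26.7 CPM for irf9. nlrc5, the activator of MHC class I genes in mammals, lay between 13.7 and 27.3 CPM, with number 5 highest in both groups (24.8 and 27.3 CPM). b2m, the light chain of MHC class I, lay between 487 and 749 CPM and was high in number 5, at 701 and 749 CPM, but not in number 3, at 542 and 591 CPM. Leukocyte markers (15 genes in the tables, 13 tested) summed to 180 to 298 CPM in control and 129 to 221 CPM in Amh libraries. The highest sum was in number 4 of each group, where cd74a (invariant chain of MHC class II) alone gave 162 and 97.8 CPM. The mean log2 CPM of the 13 tested was also highest there, but spanned only 2.73 to 2.85 in control and 2.18 to 2.73 in Amh libraries. Single markers differed in order, with ZAP70 lowest in number 4 (3.15 and 4.45 CPM). Markers of Leydig cells, the makers of androgen (5 genes), were lowest in number 3, with sums of 34.9 and 25.6 CPM against 132 to 336 CPM in the other 8 libraries. The part of these cell types and of interferon in the immune subunit levels was not tested, and in bulk tissue fewer cells of a type and less RNA per cell cannot be told apart.

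By a rule that names for each tested immune subunit the gene with the most similar log2 CPM over the 10 libraries (which share a number in pairs), OSBPL10, an oxysterol-binding protein, came first for psmb8 and psmb12 (Pearson's r = 0.979 for both). psmb13a came first for psmb9 (r = 0.966), kat7a, a histone acetyltransferase, for psmb13a (0.978), and EVL, an actin regulator, for psmb10 (0.955). Among the 4 adjacent immune genes r ranged from 0.807 to 0.966. With 19420 genes to choose from and 5 numbers, values of this size are a description only.

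The groups differ by the addition of Amh to the androgen. In the unpaired edgeR quasi-likelihood test 0 of 49 members passed, where 0.00% of all 19420 genes passed, and 0 members reached an unadjusted p under 0.05, against 0.675% of all genes. With the replicate number as a block (paired), edgeR called 0 members again, against 0.0206% of all genes (0.0103% as higher). Paired limma-voom called 0 members, against 0.0412% of all genes, and paired DESeq2 0, against 0.260% of the 10007 genes to which it gave an adjusted p. Unpaired, both called 0. At an unadjusted p under 0.05, paired edgeR gave 3 members as higher with Amh (6.12%, against 3.84% of all genes) and 0 as lower (against 4.88%), where 8.72% of all genes reached it in either direction. These were psmd3, psmb10 and psmd11 (ENSDARG00000060150). At that level paired DESeq2 gave 1 member, against 5.73% of all genes, and paired limma-voom 3, against 9.32%. Unpaired they gave 0, against 0.836% and 0.700%.

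Cell type markers were set beside the members. The unpaired log2 fold change was above 0 in 7 of 7 tested Sertoli cell markers (median 0.31), below 0 in 5 of 5 Leydig cell markers (median -0.58) and below 0 in 6 of 7 germ cell markers (median -0.09). It was above 0 in 47.1% of all tested genes. The values of the Sertoli cell markers ran from 0.01 (DMRT1) to 0.77 (inha). The Sertoli cell markers include 2 genes named SOX9. Over the Leydig cell markers the mean log2 ratio was 0.04 in pair 1 and -0.17 to -0.95 in pairs 2 to 5. Of the Sertoli, Leydig and germ cell markers, 0 passed in edgeR, unpaired or paired, and paired DESeq2 called 2 Leydig cell markers as changed. Of the leukocyte markers, cd74a, the invariant chain of MHC class II, fell with the block (paired log2 fold change -0.62 ± 0.0831, SE; lower in 5 of 5 pairs, edgeR adjusted p = 0.0296). The part of cell type makeup in the values of the members was not tested.

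The fitted differences were small and mostly above 0. The unpaired log2 fold change (Amh against control) was above 0 in 41 of 49 members (83.7%, against 47.1% of all genes), with a median of 0.05 against -0.01 over all genes and a range of -0.09 to 0.19. The median was 0.02 without control 1, and in the paired fit 0.08 without number 5. In 8 members (16.3%, against 4.65% of all genes) the Amh library was the higher in 5 of 5 pairs. For 4 or 5 of 5 pairs the count was 21 members (42.9%, against 21.3%), and in 0 members was the Amh library the lower in 5 of 5 pairs (against 5.11% of all genes). The 8 were psma3, psma8, psmb1, psmb3, psmc3, psmd13, psmd11 (ENSDARG00000060150) and psmg1. The mean log2 ratio over the 49 members was 0.08, 0.07, 0.05, 0.08 and -0.01 in pairs 1 to 5, so that pair 5 did not share the direction. Members of 1 complex share their source and libraries and are no replicates of the comparison.

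**Figure D3:**
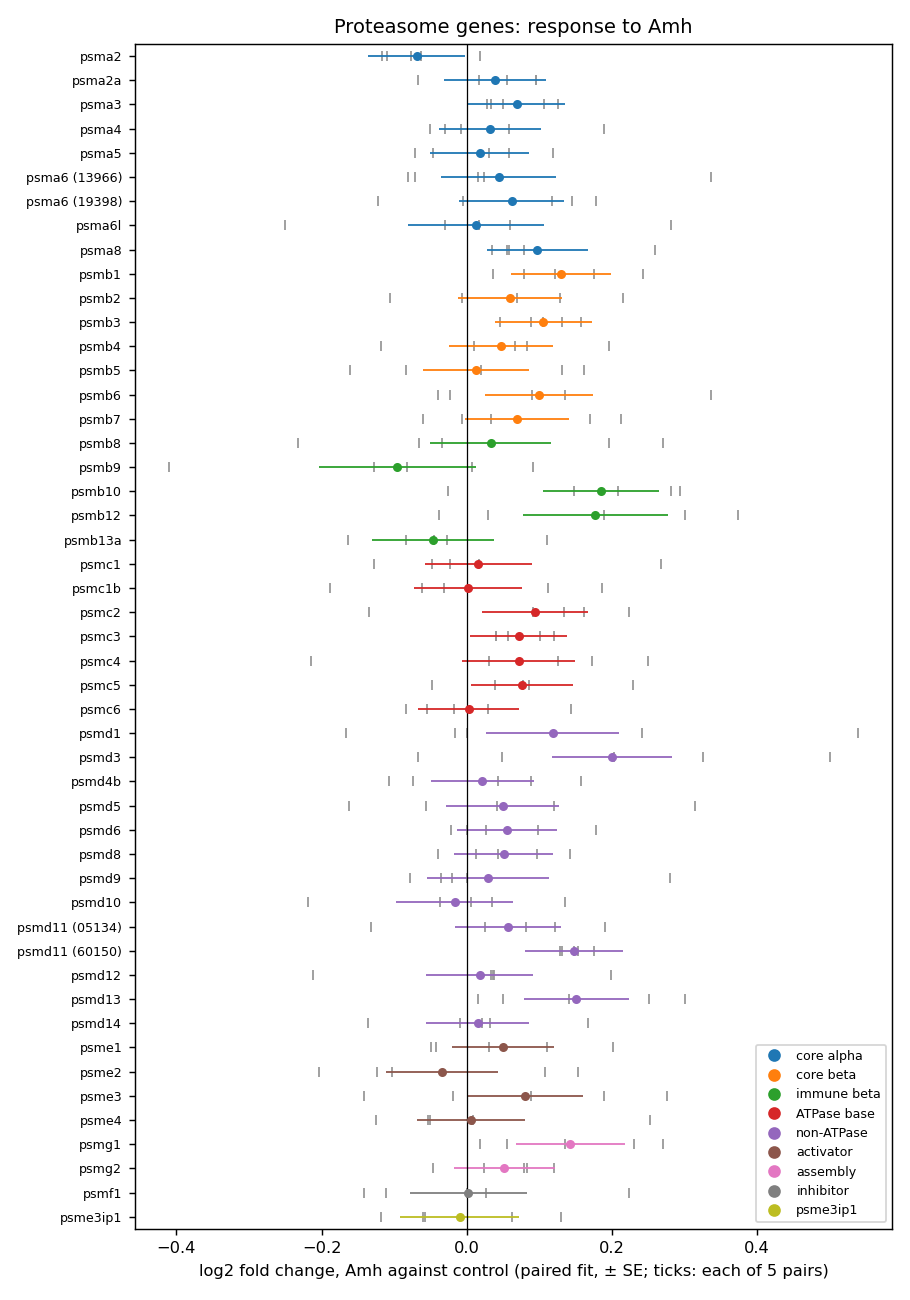
Log2 fold change of Amh against control in the paired edgeR fit (points, bars ± SE, n = 5 pairs) for the 49 tested members by role, with grey ticks for the log2 ratio in each pair; digits in brackets are the last of the Ensembl ID where genes share a name. Most points lie to the right of 0, within 0.20 of it, and no member passed the test.

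Among the core alpha genes 7 of 9 had an unpaired log2 fold change above 0 (median 0.04), and 0 passed. psma8 (ENSDARG00000010965), which RefSeq lists with the synonym psma7 and which takes the alpha7 place, stood at 187, 227, 217, 213 and 223 CPM in control and at 224, 232, 229, 221 and 231 CPM in Amh libraries. Control 1 was the lowest, and the groups overlapped, with control 2 and control 5 inside the Amh range. Its paired log2 fold change was 0.10 ± 0.0694 (SE, n = 5 pairs), with edgeR adjusted p = 0.723. psma4 (ENSDARG00000045928), an alpha subunit with the highest CPM of its role, stood at 228, 268, 288, 277 and 254 CPM in control and at 220, 263, 300, 316 and 253 CPM in Amh libraries. It was high in numbers 3 and 4 and lowest in number 1 in both groups. psma6l (ENSDARG00000043899), by name a copy of the alpha subunit gene psma6, varied most among them, from 20.2 CPM in control 1 to 36.9 CPM in control 2. The 2 genes named psma6 and psma6l may share reads.

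All 7 constitutive beta genes had an unpaired log2 fold change above 0 (median 0.07, range 0.01 to 0.13), and 0 passed. psmb1 (ENSDARG00000009640), a structural subunit without proteolytic activity, stood at 141, 128, 128, 142 and 154 CPM in control and at 160, 152, 135, 154 and 158 CPM in Amh libraries. It was higher with Amh in 5 of 5 pairs, by 0.04 to 0.24 on the log2 scale, and the groups overlapped. Its paired log2 fold change was 0.13 ± 0.0687 (SE), with edgeR adjusted p = 0.621. psmb7 (ENSDARG00000037962), the trypsin-like beta2 subunit, stood at 436, 426, 406, 407 and 512 CPM in control and at 446, 494, 404, 457 and 491 CPM in Amh libraries. The catalytic subunits psmb5 and psmb6 had unpaired log2 fold changes of 0.01 ± 0.111 and 0.10 ± 0.109 (SE).

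Of the 5 tested immune genes 3 had an unpaired log2 fold change above 0 (median 0.06), and 0 passed. With the block psmb10 stood at 0.18 ± 0.0800 (SE; higher in 4 of 5 pairs, edgeR adjusted p = 0.541) and psmb12 at 0.18 ± 0.0998 (4 of 5, 0.653). psmb8 stood at 0.03 ± 0.0830 (higher in 2 of 5 pairs), psmb13a at -0.05 ± 0.0839 (1 of 5) and psmb9 at -0.10 ± 0.108 (2 of 5). Unpaired, the standard error of the 4 adjacent genes was 0.319 to 0.434, against 0.107 for psmb10, and leaving out 1 library moved psmb8 between -0.25 and 0.28 and the median of the immune genes between -0.15 (without Amh 5) and 0.24 (without control 3). The mean log2 CPM of the immune genes minus that of psmb1 to psmb7 was -2.91, -2.86, -1.77, -2.79 and -2.17 in control and -2.84, -3.13, -1.85, -2.84 and -1.99 in Amh libraries 1 to 5. That difference was higher with Amh in 2 pairs (1 and 5) and lower in 3.

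In the regulatory particle, 6 of 7 ATPase genes had an unpaired log2 fold change above 0 (median 0.07), and 0 passed. psmc5 (ENSDARG00000015315), Rpt6 in yeast, stood at 281, 262, 306, 271 and 301 CPM in control and at 289, 307, 323, 287 and 291 CPM in Amh libraries, with overlapping groups. psmc2 (ENSDARG00000020101), Rpt1 in yeast, stood at 141, 135, 129, 119 and 167 CPM in control and at 157, 148, 138, 139 and 152 CPM in Amh libraries. Control 5 was the highest and control 4 the lowest of the 10. Its paired log2 fold change was 0.09 ± 0.0732 (SE, edgeR adjusted p = 0.748). psmc1 and psmc1b, which may share reads, stood at 0.01 ± 0.132 and -0.00228 ± 0.129 (unpaired log2 fold change, SE).

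Of the 13 tested non-ATPase genes 12 had an unpaired log2 fold change above 0 (median 0.05), and 0 passed. psmd3 (ENSDARG00000018124), Rpn3 of the lid in yeast, had the smallest p of all members in the paired fit. It stood at 189, 124, 144, 150 and 157 CPM in control and at 181, 175, 165, 188 and 162 CPM in Amh libraries. The groups overlapped, with control 1 just above the highest Amh library and control 2 the lowest. Its paired log2 fold change was 0.20 ± 0.0833 (SE; higher in 4 of 5 pairs, edgeR adjusted p = 0.527). psmd13 (ENSDARG00000016239), Rpn9 of the lid in yeast, stood at 0.15 ± 0.0728 and psmd11 (ENSDARG00000060150), Rpn6 of the lid in yeast, at 0.15 ± 0.0678 (paired log2 fold change, SE), each higher in 5 of 5 pairs. psmd14 (ENSDARG00000063100), the enzyme that takes ubiquitin chains off substrates, was among the steadiest members, between 131 and 148 CPM in all libraries.

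psmd1 (ENSDARG00000003189), the large scaffold Rpn2 of the base in yeast, stood at 432, 343, 572, 335 and 512 CPM in control and at 427, 498, 510, 397 and 512 CPM in Amh libraries. It was low in control 2 and control 4 and high in numbers 3 and 5. psmd6 (ENSDARG00000070674), Rpn7 in yeast, was highest in number 2 (189 CPM in both groups) and lowest in number 1 (112 and 127 CPM). psmd9 (ENSDARG00000006300), a chaperone that assembles the base, was lowest in number 5 (25.9 and 25.3 CPM) and lay between 33.6 and 48.6 CPM elsewhere. psmd6 and psmd9 are named after their values were seen. psmd11 has 2 genes, of which ENSDARG00000060150 ranged from 68.7 to 130 CPM and was lowest in number 3, while ENSDARG00000005134 lay between 89.8 and 111 CPM.

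Among activators, 0 of 4 tested genes passed (median unpaired log2 fold change 0.03). psme1 (ENSDARG00000002165), which with psme2 forms the PA28 ring that interferon induces in mammals, stood at 120, 142, 122, 154 and 132 CPM in control and at 138, 138, 132, 158 and 127 CPM in Amh libraries. psme2 lay between 61.3 and 89.0 CPM. Both were highest in number 4, not in numbers 3 and 5. psme3 (ENSDARG00000012234), which forms the nuclear PA28 ring, stood at 59.4, 70.5, 70.8, 62.9 and 56.5 CPM in control and at 67.7, 63.9, 75.2, 62.0 and 68.5 CPM in Amh libraries, with a paired log2 fold change of 0.08 ± 0.0792 (SE). The tested psme4 gene (ENSDARG00000018742), whose mammalian form, PA200, is abundant in testis, lay between 96.8 and 137 CPM, with both libraries of numbers 3 and 5 above the other 6. Outside the immune genes psmd1, psmd4b and psmd5 also had this order, with smaller differences than the 4 adjacent immune genes. The share of all tested genes with this order is not given here, so that the order cannot be called particular to members. psmd5 stood at 150 to 170 CPM in numbers 3 and 5 and up to 144 CPM elsewhere, and psmd4b at 126 to 148 CPM and up to 124 CPM.

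The assembly chaperone psmg1 (ENSDARG00000040620) stood at 49.4, 48.0, 61.1, 59.9 and 61.0 CPM in control and at 58.0, 52.8, 61.9, 72.3 and 63.3 CPM in Amh libraries. It was higher with Amh in 5 of 5 pairs, with overlapping groups and a paired log2 fold change of 0.14 ± 0.0752 (SE, edgeR adjusted p = 0.621). Its partner psmg2 (ENSDARG00000035987) stood at 82.5, 117, 91.6, 77.0 and 106 CPM in control and at 87.4, 127, 88.7, 81.3 and 108 CPM in Amh libraries, highest in number 2 of both groups. The inhibitor psmf1 (ENSDARG00000022652) stood at 44.8, 44.9, 61.3, 45.2 and 39.1 CPM in control and at 52.4, 40.6, 61.4, 41.9 and 39.8 CPM in Amh libraries. It was highest in number 3 of both groups, and its unpaired log2 fold change stood at 0.00485 ± 0.162 (SE). psme3ip1 (ENSDARG00000041631) lay between 31.1 and 38.4 CPM, with overlapping groups.

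**Figure D4:**
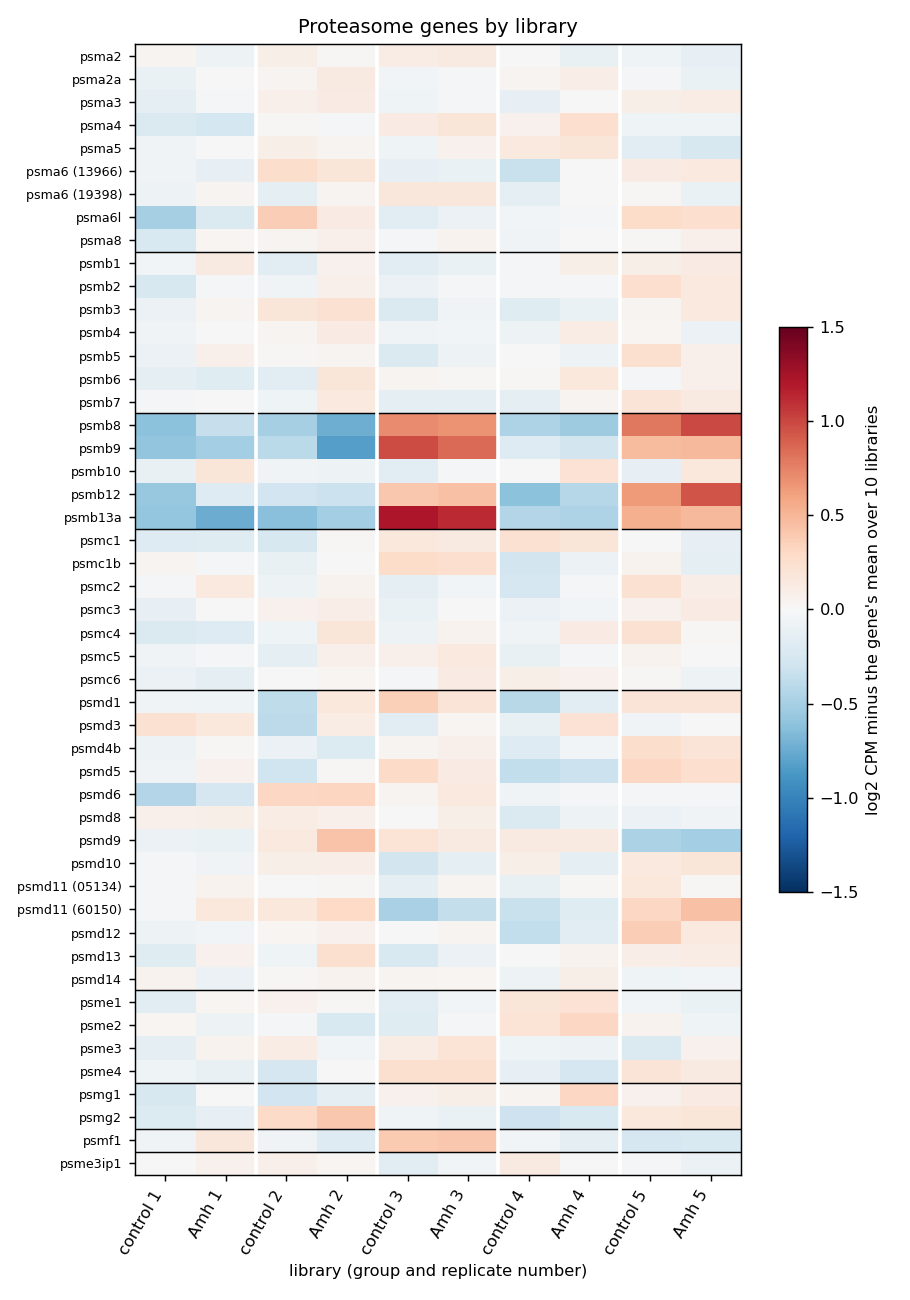
Log2 CPM of the 49 tested members in each library minus the gene's mean over the 10 libraries (red above, blue below), with libraries side by side by replicate number and genes grouped by role between the black lines; digits in brackets are the last of the Ensembl ID. The rows of psmb8, psmb9, psmb12 and psmb13a stand out, red in numbers 3 and 5 and blue in numbers 1, 2 and 4.

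By the ratio of highest to lowest library, members outside the immune genes each varied less than the median of all tested genes. The widest of them were psmd9 (1.92 times), psmd11 (ENSDARG00000060150, 1.90 times) and psma6l (1.83 times). In 0 of 49 members, immune genes included, did the highest library exceed 4 times the lowest, against 20.3% of all tested genes. The highest library was 1.28 times the lowest in the median of the 16 constitutive core genes and 1.39 times in that of the 24 regulatory genes. It was 2.23 times in the median of all tested genes and 1.68 times in that of the 4006 tested genes with a mean of 50 to 500 CPM, the range that holds most members. The edgeR test of replicate number called 19 of 49 members (38.8%), against 52.6% of all tested genes and 70.8% of those with 50 to 500 CPM. By role it called 3 of 16 constitutive core genes, 4 of 5 immune genes and both psmf1 and psmg2. Of the 24 regulatory genes it called 10, of which 7 were among the 13 non-ATPase genes (53.8%). The count of 19 was 11 without number 3, 10 without number 4 and up to 25 without another number. The share of all tested genes called in those fits is not given here, so that the change cannot be read as one of members.

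Genes that work with the proteasome gave 0 calls of 23 tested, unpaired or paired (edgeR; 0 at an unadjusted p under 0.05 in both, and 0 in DESeq2 and limma-voom), with a median unpaired log2 fold change of 0.03. The smallest unpaired p among them was that of UBQLN4, a carrier of ubiquitin-bound proteins (0.11 ± 0.124, unpaired log2 fold change, SE). pomp, which matures the core, lay between 113 and 160 CPM and adrm1, a ubiquitin receptor, between 221 and 316 CPM. nfe2l1b, of the transcription factor family that drives proteasome genes in mammals, lay between 107 and 235 CPM, with number 5 highest (225 and 235 CPM) and number 4 lowest (107 and 120 CPM). Its unpaired log2 fold change was -0.01, and that of vcp, the ATPase that extracts ubiquitin-bound substrates, was 0.05. In the list of antigen processing and interferon 0 of 24 tested genes passed in the same fits (at an unadjusted p under 0.05, 1 higher and 2 lower in paired edgeR, where 8.72% of all genes reached it, and 0 in unpaired), with a median unpaired log2 fold change of 0.05, and tapbp.2 had the smallest unpaired p (0.28 ± 0.247, SE). The leukocyte markers had a median unpaired log2 fold change of -0.44, with 11 of 13 tested below 0. psmb8 stood at 0.06 ± 0.390 and psmb9 at -0.09 ± 0.367 (unpaired, SE), and their relation to leukocyte content was not tested.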

How the data were processed

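TruSeq libraries were made from RNA taken out with miRNeasy, per the labels. The deposited values are raw counts, whole numbers of reads per Ensembl gene. Tools listed in the submitters' processing notes, with no role, are HTSeq, DESeq, TopHat2 2.0.5, FastQC 0.10.1 and SAMtools 0.1.18, and the listed build is Zv9. Which annotation release, counting mode and strand option were used is not given in the sources used here.

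Gene names came from a table of Ensembl IDs, and gene order, overlaps of gene spans and synonyms from RefSeq (GRCz12tu). Its coordinates served for that order and those overlaps and are not printed. The members, lists and rules were chosen with earlier results of these data known. Entries that matched no gene ID were 6 of 31 in the list of proteasome partners and 3 of 31 in that of antigen processing and interferon. They were 2 of 18 in the leukocyte list and 1 of 9 in the germ cell list. Leukocyte entries without a gene in the tables were mpeg1.1, csf1ra, mpx and lck, and CXCR4 stands for different gene IDs there. Named members are all immune subunits and, in each role, those with most reads, the smallest unpaired p and the smallest paired p. Members that passed a test, or whose highest library exceeded 4 times the lowest, would have been added, and there were none. Others were named after their values were seen.

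filterByExpr kept 19420 of 33737 genes. Amh was compared with control by edgeR 4.0.16 in R 4.3.3 (quasi-likelihood test with TMM scaling and a term for group alone, Benjamini-Hochberg adjustment over all genes, threshold 0.05), with DESeq2 1.42.0 and limma 3.58.1 as alternatives. Standard errors are the size of the log2 fold change over the square root of its F. Log2 CPM used a prior count of 2. The scripts were tested on simulated data.

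The correlation of deviations from the group means was 0.490 to 0.784 between libraries of the same number and -0.338 to 0.130 between those of other numbers, so the numbers were taken to pair the samples. This rests on the data, since the labels do not say what a number is. Unpaired p-values are set against the spread between the libraries of a group, as deposited. Paired p-values, and those of the test of replicate number, are set against the spread left once group and number are fitted. A small p for number thus says that numbers differ beyond the spread within a number, whatever a number stands for. The test of replicate number, in the paired fit, was added after seeing the data. Levels per coding length were not computed, as no lengths were used here, so levels are compared only between libraries. Counting floors of 3 counts cover counting error only.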

Additional observations from a re-analysis of the deposited data

Results flagged for a closer look

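In 2 of 38 sets of 5 libraries (19 named and tested members in each group) a library lay far from the others. By chance about 1 in 20 such sets would show this. For psmb7 in the control group, the gap between control 5 (512 CPM) and the next library was 0.718 of the whole range, over the critical value of 0.710. For psmf1 in the control group, the gap between control 3 (61.3 CPM) and the next library was 0.724 of the range, and Amh 3 stood at 61.4 CPM.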

How the results depend on the processing

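No member was called in any of the 25 alternatives: RLE or upper-quartile scaling, no low-count filter, DESeq2, limma-voom, 1 depth for all libraries, each library left out, and the replicate block with or without each number. Unpaired, edgeR, DESeq2 and limma-voom called 0 of all 19420 genes too. With the block, edgeR called 0.0206% of all genes, limma-voom 0.0412% and DESeq2 0.260% of those with an adjusted p. The absence of calls is thus not particular to members. For the other alternatives the share of all genes called is not given here. The lowest adjusted p of a named member was 0.132, for psmb10 with the block and without number 2. The median log2 fold change of all members was 0.05 with the replicate block, and 0.02 to 0.08 over all alternatives, and that of the constitutive core 0.03 to 0.09 and of regulatory genes 0.02 to 0.08. The 3 medians were lowest without control 1 and highest with the block and without number 5. The block changed no call among members. The median of the immune genes changed sign in 7 of 25 alternatives (-0.15 to 0.24), that of assembly and inhibitor genes in 1 (-0.01 to 0.12), and the immune minus constitutive difference in 6 (-0.21 to 0.20), each by less than the spread between libraries. The number of members that differed between replicate numbers was 17 to 20 under other scaling, filter or depth. It was 10 to 25 when a number was left out (11 without number 3 and 10 without number 4). The share of all tested genes called in those fits is not given here, and the cause was not tested. At the depth of these libraries, levels of psmb11b and of the psme4 gene at 0 counts could not be compared. The order of members by level per coding length was not run.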
